A study of Mus musculus with 4 samples.

Results

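The genes described here encode the enzymes and small proteins that remove peroxides, superoxide and reactive electrophiles from cells, with the pair of proteins that control many of them. They were chosen by name: glutathione transferases, peroxiredoxins, thioredoxins and their reductases, glutathione peroxidases, superoxide dismutases and glutaredoxins, plus Nfe2l2, Keap1, Nqo1, Gclc, Gclm, Gss, Gsr, Srxn1, Cat, Mt1 and Mt2. The rule found 53 of the 16755 genes in the deposited table. RNA had been sequenced in bulk from alveolar macrophages, the resident phagocytes of the air sacs, sorted by flow cytometry from mouse lung; the design text speaks of single cells, but the table holds 1 column per sample. The WT group (2 libraries) came from C57BL6 wild-type mice, and the OPNKO group (2 libraries) from C57BL6 mice that lack osteopontin (Spp1-/-), a secreted glycoprotein encoded by Spp1. All 4 samples carry a tag for bleomycin, a drug used to model lung fibrosis, and their columns name day 14, although their treatment protocol states that none was given. The sources used here do not give the age of the mice, the part of Spp1 that is deleted, the surface markers of the sort or whether animals were pooled. No group without bleomycin was analysed here.

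Hydrogen peroxide is removed by catalase, by glutathione peroxidases, which use the tripeptide glutathione, and by peroxiredoxins, which are recharged by thioredoxin. Glutathione transferases join glutathione to electrophiles, and metallothioneins are small cysteine-rich proteins that bind zinc and copper. The transcription factor NRF2, encoded by Nfe2l2, activates many of these genes through the antioxidant response element (ARE) and is held down by KEAP1. Alveolar macrophages meet inhaled oxygen and oxidants and make superoxide themselves.

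Values are the authors' normalized values, here called normalized read counts because each is a whole number of reads times a factor for its library; the libraries held 35793800 to 44759630 such reads. Fold changes are OPNKO minus WT on the log2(value + 1) scale, with a standard error (SE) by limma, which fits each gene and moderates its variance towards that of other genes, and a gene was called when its p, adjusted over 16431 tested genes, was under 0.05. With 2 libraries a group, 0.333 is the smallest two-sided p that an exact permutation test allows. Groups were taken from the sample titles, since title and genotype tag disagreed for 2 of the 4 samples, and Spp1 followed the titles, with OPNKO at 0.690% of the WT mean. Of 20 alveolar macrophage markers all were in the table and 0 were at 0 in every library, with summed values of 1283830 and 1275120 in WT and 982644 and 1108260 in OPNKO. Chi3l3 makes up much of that sum (means of 639320 in WT and 361291 in OPNKO, not called by limma), while 5 of the 20 markers had a fold change below 0 (median 0.17), and 3 rose and 2 fell. The labels do not say that replicates were separate animals, and p-values here describe only the spread among these 4 libraries, which may be technical.

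Of 52 members tested, 4 fell (the metallothionein genes Mt1 and Mt2, the plasma glutathione peroxidase gene Gpx3 and the transferase gene Gsto1) and 0 rose, beside 1.98% of all tested genes called lower and 2.33% called higher. At an unadjusted limma p under 0.05, 2 were higher, Nfe2l2 and Gstm1, beside 11.6% of all tested genes, and 9 were lower, beside 9.54%. Among members called higher, edgeR's quasi-likelihood test gave 0 (2.59% of its tested genes), DESeq2 gave 1 (4.73%) and the authors' deposited table gave 1 (2.73%), Gstm1 both times. Called lower were 3 members by edgeR (2.37% of its tested genes), 5 by DESeq2 (3.93%) and 4 in the authors' deposited table (1.61%). The fold change was below 0 for 39 of 52 members and for 8223 of 16431 tested genes, and the median was -0.13 for the members and -0.00056 for all tested genes. Both OPNKO libraries lay below both WT libraries for 21 members (25.0% of all tested genes did so) and above them for 7 (27.7% of all tested genes). The groups overlapped for the other 24 tested members. Most sizes were small, as they were over the whole table. The median absolute log2 fold change was 0.149 for members and 0.189 for all tested genes. In either direction, 31 of 52 members had a log2 fold change under 0.2. Between -0.2 and -0.1 lay 14 members (26.9%, beside 10.7% of all tested genes). Together the 53 genes made up 0.492% and 0.494% of all values in the WT libraries and 0.473% and 0.448% in the OPNKO libraries. Lower RNA per cell and fewer cells of a type cannot be told apart in bulk samples. Without WT replicate 1, and likewise without WT replicate 2, 0 members were called by limma, against 4 without OPNKO replicate 1 and 3 without OPNKO replicate 2.

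**Figure D1:**
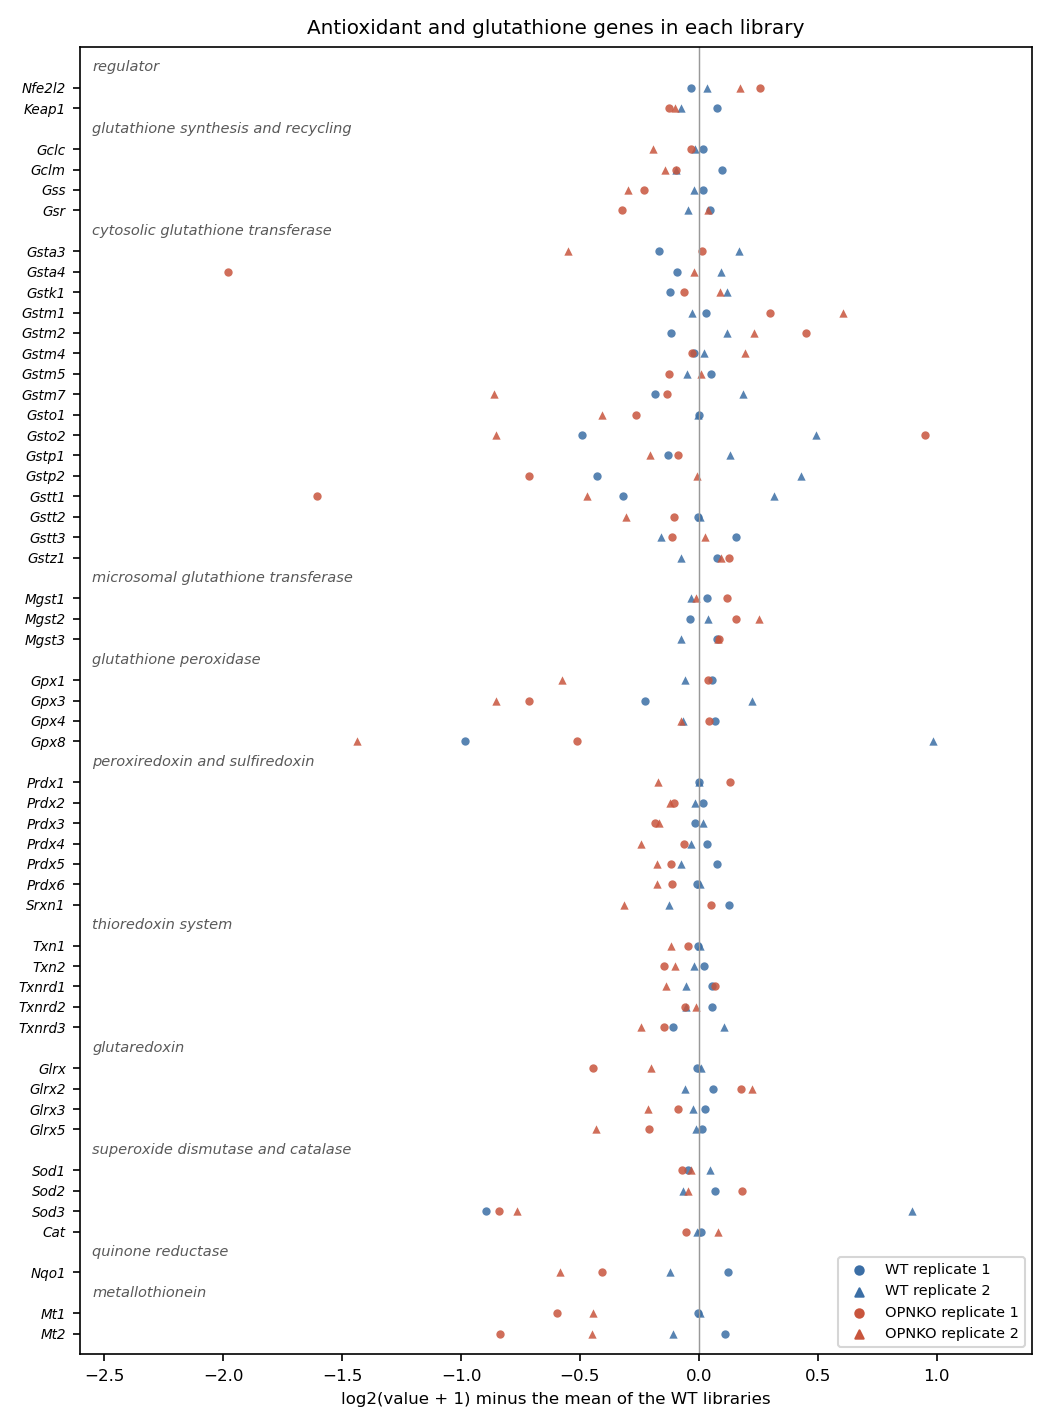
Each tested member in each library, as log2(value + 1) minus the mean of the WT libraries, grouped by role; blue marks are WT and red marks OPNKO, circles replicate 1 and triangles replicate 2. Mt1, Mt2, Gpx3 and Gsto1 show both red marks left of both blue marks, Gstm1 shows both to the right, and the widest scatter is in members of low value such as Gsta4 and Gpx8.

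**Figure D2:**
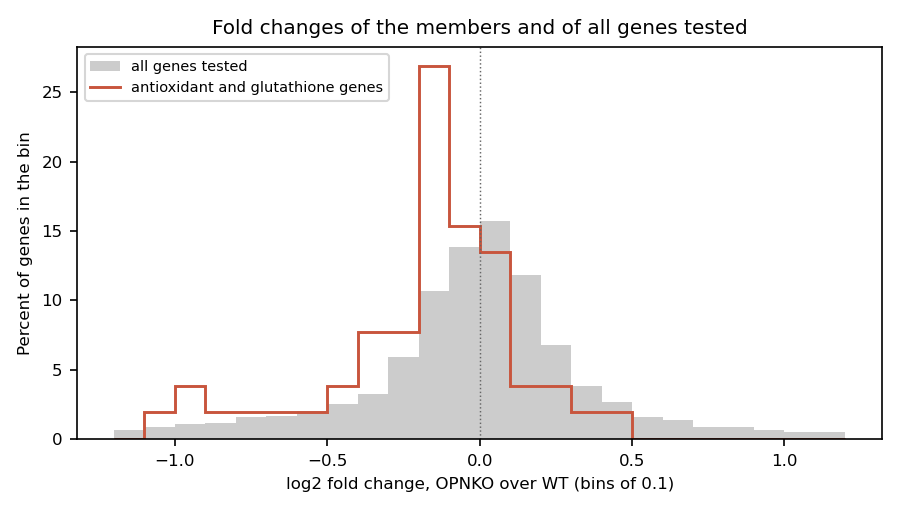
Percent of genes in each log2 fold change bin of 0.1 for the 52 tested members (red line) and for all 16431 tested genes (grey). The members' tallest bin, -0.2 to -0.1, holds 26.9% of them and 10.7% of all tested genes; 1248 genes and 0 members lie beyond the axis limits of -1.2 and 1.2.

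Both metallothionein genes fell, Mt1 with the lowest adjusted p of the 4 called members and Mt2 with the highest. Mt1 had normalized read counts of 7501 and 7555 in the WT libraries and 4979 and 5523 in the OPNKO libraries. Its mean fell from 7528 ± 38.0 to 5251 ± 384 (SD, n = 2), to 69.8% of WT, which is -0.52 ± 0.07 (SE) as a log2 fold change (adjusted p = 0.0114 by limma). Mt2 had 2694 and 2312 in WT and 1396 and 1825 in OPNKO. Its mean fell from 2503 ± 270.2 to 1610.4 ± 303 (SD, n = 2), to 64.3% of WT, which is -0.64 ± 0.13 (SE) as a log2 fold change (adjusted p = 0.0457 by limma). For both genes every OPNKO library lay below every WT library. Mt1 exceeded Mt2 by 2.78-fold and 3.27-fold in WT and by 3.57-fold and 3.03-fold in OPNKO, in read counts not divided by length. Both calls were lost without WT replicate 1 (limma adjusted p = 0.177 for Mt1 and 0.312 for Mt2) and without WT replicate 2 (0.203 and 0.269). Mt2 was also lost without OPNKO replicate 1 (limma adjusted p = 0.0980) and by edgeR (adjusted p = 0.0519), with a pseudocount of 10, and when genes of mean value below 50 were left out. Exons of Mt2 overlap an antisense gene, and whether counting used strand is not stated.

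The genes are neighbours on mouse chromosome 8, with Mt2 from 94172664 to 94173568 and Mt1 from 94179082 to 94180327, plus strand, GRCm38 with GENCODE M21, and 5.51 kb between them. Metallothionein promoters carry metal response elements (MRE), the sites of the zinc-sensing transcription factor MTF1. The 250 bases before each start in RefSeq (GRCm38.p6) are shown because both genes fell, with those of Gstm1, whose values lay the other way. Capitals mark MRE letters (TGCACNC or TGCGCNC) and ARE letters (TGACNNNGC), searched on both strands.

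Mt1 (chr8:94178839-94179088, plus strand): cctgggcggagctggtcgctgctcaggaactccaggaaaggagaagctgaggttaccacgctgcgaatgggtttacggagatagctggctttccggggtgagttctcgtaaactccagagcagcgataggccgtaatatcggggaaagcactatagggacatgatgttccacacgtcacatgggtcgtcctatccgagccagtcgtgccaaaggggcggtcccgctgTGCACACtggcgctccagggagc

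Mt2 (chr8:94172368-94172617, plus strand): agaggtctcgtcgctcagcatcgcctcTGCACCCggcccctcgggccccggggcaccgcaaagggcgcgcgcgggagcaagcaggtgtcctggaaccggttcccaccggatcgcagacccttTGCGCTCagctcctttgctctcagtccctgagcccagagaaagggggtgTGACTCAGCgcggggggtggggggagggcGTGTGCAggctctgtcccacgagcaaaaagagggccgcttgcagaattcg

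Gstm1 (chr3:108017974-108018223, minus strand): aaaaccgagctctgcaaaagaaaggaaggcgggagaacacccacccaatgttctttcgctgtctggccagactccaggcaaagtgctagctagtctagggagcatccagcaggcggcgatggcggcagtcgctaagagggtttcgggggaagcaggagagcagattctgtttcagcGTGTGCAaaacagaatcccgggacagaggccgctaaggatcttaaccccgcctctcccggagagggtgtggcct

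Each window ends at the RefSeq start nearest the beginning of the GENCODE gene, and bases after that start were not searched. Counts of matches thus hold for these windows and not for whole promoters. Annotated exons of Mt1 cover its whole span, and bases before any start further inside it were not searched. The Mt1 and Mt2 counts are therefore no comparison of their promoters. The Mt1 window held 1 MRE match, at -23 to -17 from the start. Mt2 held 3, beginning at -223, -128 and -50, and 1 ARE match at -79 to -71, which starts with the AP-1 motif TGACTCA. Gstm1 held 1 MRE match. That match, and the Mt2 match beginning at -50, read on the strand opposite to the one printed. None of the matches overlapped another. MRE letters stood in 13 of 47 member windows (27.7%) and in 21.4% of 32851 promoter windows of this length, and ARE letters in 8 of 47 (17.0%) and in 10.2%. Gsto1 and Gpx3 had neither set of letters in this window. A match is a description of letters and not of binding.

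Other genes of metal handling were read from a list of 21 that leaves out both metallothioneins. Of these, 2 rose and 1 fell (median log2 fold change 0.05), beside 2.33% of all tested genes called higher and 1.98% called lower. Mtf1, which encodes the zinc sensor itself, had 1597 and 1586 in WT and 2153 and 2229 in OPNKO, so it rose by 0.46 ± 0.07 on the log2 scale (SE; limma adjusted p = 0.0153). Slc39a10, a zinc importer gene, rose from 3506 and 3449 to 5380.01 and 5025 (0.58 ± 0.06, SE; limma adjusted p = 0.00631). Slc30a4, whose product moves zinc out of the cytosol into vesicles, fell from 801 and 720.2 to 550.2 and 467 (-0.58 ± 0.12, SE; limma adjusted p = 0.0439). For each of the 3 genes the groups did not overlap. Slc30a1, the zinc exporter gene of the plasma membrane, had 1139 and 1025 in WT and 838 and 820.3 in OPNKO, or -0.38 ± 0.09 on the log2 scale (SE; limma adjusted p = 0.0655, edgeR adjusted p = 0.0506), and was not called. Mtf1, Slc39a10 and Slc30a4 were not called without WT replicate 1 (limma adjusted p = 0.175, 0.155 and 0.284) or without WT replicate 2 (0.212, 0.151 and 0.280). Mtf1 and Slc30a4 were also not called without OPNKO replicate 2 (log2 fold changes of 0.44 and -0.46). In the authors' deposited table Slc30a4 was not called (adjusted p = 0.165).

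**Figure D3:**
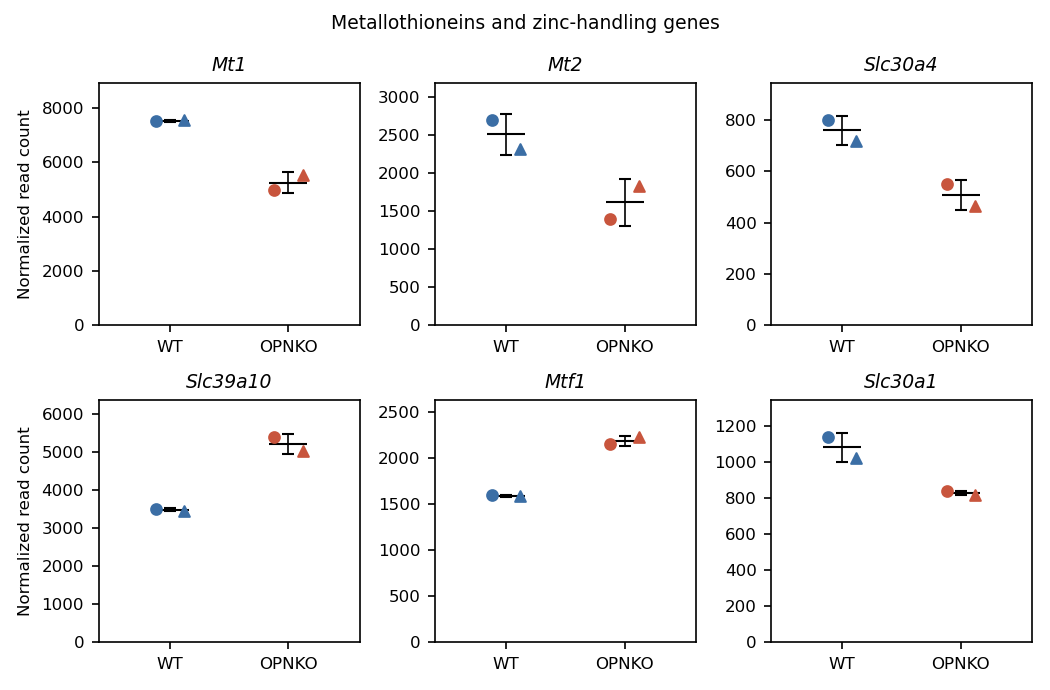
Normalized read counts of Mt1, Mt2 and 4 zinc-handling genes in each library; blue is WT and red OPNKO, circles are replicate 1 and triangles replicate 2, and the bar shows the mean with its SD (n = 2). Mt1, Mt2, Slc30a4 and Slc30a1 lie lower in both OPNKO libraries, and Slc39a10 and Mtf1 lie higher.

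Among regulators, Nfe2l2 had 11540 and 12099 in WT and 14099 and 13309 in OPNKO. Both OPNKO libraries were higher, and the log2 fold change was 0.21 ± 0.07 (SE), with a 95% interval of 0.06 to 0.37 and a limma adjusted p of 0.122. Keap1 had 2375 and 2135 in WT and 2066 and 2097 in OPNKO (-0.11 ± 0.08, SE; limma adjusted p = 0.443). Nqo1, a quinone reductase gene and a standard NRF2 target, had 245 and 206 in WT and 169 and 149 in OPNKO. Its groups did not overlap, and its log2 fold change of -0.50 ± 0.18 (SE) was not called (limma adjusted p = 0.173). Of the 30 other NRF2-linked stress genes on a list, 0 rose and 1 fell by limma, and 14 had a fold change below 0. At an unadjusted limma p under 0.05, 3 were lower and 3 higher, beside 9.54% and 11.6% of all tested genes. EdgeR called 1 and DESeq2 2. Sqstm1 had 16613 and 16139 in WT and 19567 and 18642 in OPNKO. DESeq2 called it higher (adjusted p = 0.0435), and limma did not (adjusted p = 0.109). The gene that fell was Hmox1, which encodes the haem-degrading enzyme haem oxygenase 1, at 18107 and 20456 in WT and 10177 and 12497 in OPNKO (-0.77 ± 0.11, SE; limma adjusted p = 0.0135, and 0.172 without WT replicate 1 and 0.228 without WT replicate 2).

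The 4 genes of glutathione synthesis and recycling all had fold changes below 0 and 0 were called by limma, edgeR or DESeq2, with 1, Gss, at an unadjusted limma p under 0.05. Gclc, the catalytic subunit of the rate-limiting ligase, had 2268 and 2215 in WT and 2188 and 1962 in OPNKO. Gclm, its modifier subunit, had 3642 and 3187 in WT and 3191 and 3087 in OPNKO. Their 95% intervals on the log2 scale were -0.30 to 0.07 and -0.31 to 0.07, so falls past 0.31 lay outside both. Gss, glutathione synthetase, had 588 and 573 in WT and 494 and 472 in OPNKO (-0.26 ± 0.10, SE; limma adjusted p = 0.199). Gsr, which reduces oxidized glutathione, had 15110.5 and 14185 in WT, and its OPNKO libraries differed between themselves, at 11690.4 and 15028. Without OPNKO replicate 1 Gsr stood at 0.04 on the log2 scale (limma adjusted p = 0.856; 0.128 to 0.856 over all alternatives).

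Of the genes around this pathway, 29 of glutathione supply and turnover were tested. At an unadjusted limma p under 0.05, 3 were lower and 1 higher, beside 9.54% and 11.6% of all tested genes. Called were 0 by limma, 0 by edgeR, 2 by DESeq2 and 1 in the authors' deposited table. That 1 was Slc7a11, the cystine importer gene, at 4952 and 4211 in WT and 3738.5 and 3134 in OPNKO (-0.42 ± 0.11, SE; limma adjusted p = 0.0837; adjusted p = 0.0371 in the authors' deposited table). Among 17 genes of NADPH supply, the reductant behind both glutathione and thioredoxin, 13 had a fold change below 0 (median -0.16). Of the 17, 0 were called by limma, 0 by edgeR and 2 by DESeq2. At an unadjusted limma p under 0.05, 6 were lower and 0 higher, beside 9.54% and 11.6% of all tested genes. Of 19 genes that produce oxidants, 9 had a fold change below 0, and 0 were called by limma, 0 by edgeR and 2 by DESeq2. At an unadjusted limma p under 0.05, 3 were lower and 3 higher, beside the same shares of all tested genes. Cybb, the catalytic subunit of the phagocyte NADPH oxidase, had 102957 and 94984 in WT and 124864 and 115129 in OPNKO (0.28 ± 0.10, SE; limma adjusted p = 0.175; adjusted p = 0.0172 in the authors' deposited table). Its partner Cyba had 22685 and 21534 in WT and 20262 and 18489 in OPNKO (-0.19 ± 0.07, SE; limma adjusted p = 0.201), and Rac2, a GTPase that activates the oxidase, had 11137 and 11372 in WT and 8854 and 10035 in OPNKO (-0.26 ± 0.08, SE; limma adjusted p = 0.112).

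Glutathione transferases other than the microsomal ones did not lie to one side. Of 16 tested, 10 had a fold change below 0 and 6 above, and 1 fell. Gsto1, an omega-class transferase that reduces dehydroascorbate and arsenic compounds, had 5869.8 and 5851 in WT and 4880.02 and 4413 in OPNKO. Its mean fell from 5860.3 ± 13.5 to 4646 ± 331 (SD, n = 2), to 79.3% of WT (-0.34 ± 0.07, SE; limma adjusted p = 0.0447). That call was lost without WT replicate 1 (limma adjusted p = 0.258), WT replicate 2 (0.326) or OPNKO replicate 2 (0.147), and when genes of mean value below 50 were left out (0.0509). Its neighbour Gsto2, which starts 0.743 kb after the end of Gsto1 on chromosome 19, had values from 7.47 to 28.5, at most 25 reads in a library. Gstm1, a mu-class transferase, had 5945 and 5713 in WT and 7174 and 8881 in OPNKO, with both OPNKO libraries higher. Its mean was 5829 ± 164 in WT and 8028 ± 1207 in OPNKO (SD, n = 2), so that the difference was 0.45 ± 0.10 on the log2 scale (SE) with a 95% interval of 0.22 to 0.69. Limma's adjusted p of 0.0554 and edgeR's of 0.0675 missed the threshold, while DESeq2 (adjusted p = 0.00166), the authors' deposited table (adjusted p = 0.00247) and limma without OPNKO replicate 1 (adjusted p = 0.0185) passed it (0.00166 to 0.385 over all alternatives).

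Gstm1 lies on chromosome 3 from 108012255 to 108017973, minus strand, in a cluster with Gstm5, Gstm7, Gstm2 and Gstm4 that spans 107895821 to 108044894. The other mu-class genes were lower per kb of exon, the highest being Gstm4, with 396 against 4704 for Gstm1 as means over the 4 libraries. Log2 fold changes were 0.34 for Gstm2, 0.08 for Gstm4, -0.06 for Gstm5 and -0.50 for Gstm7, and their limma adjusted p ran from 0.471 to 0.893. How reads shared between paralogs were counted is not stated, so the values of the mu-class genes are uncertain, as are those of Gstp1 and Gstp2; sequence identity was not measured here. Gstp1, the pi-class enzyme, had 1224 and 1466 in WT and 1260.2 and 1161 in OPNKO. Microsomal transferases, which sit in membranes and also act on lipid peroxides, had fold changes above 0 in 3 of 3 members, from 0.05 to 0.20, and 0 were called by limma, edgeR or DESeq2, with 0 also at an unadjusted limma p under 0.05. Mgst1 was the highest of them per kb, with counts of 7440 and 7088 in WT and 7877 and 7192 in OPNKO and a 95% interval of -0.11 to 0.22 on the log2 scale.

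**Figure D4:**
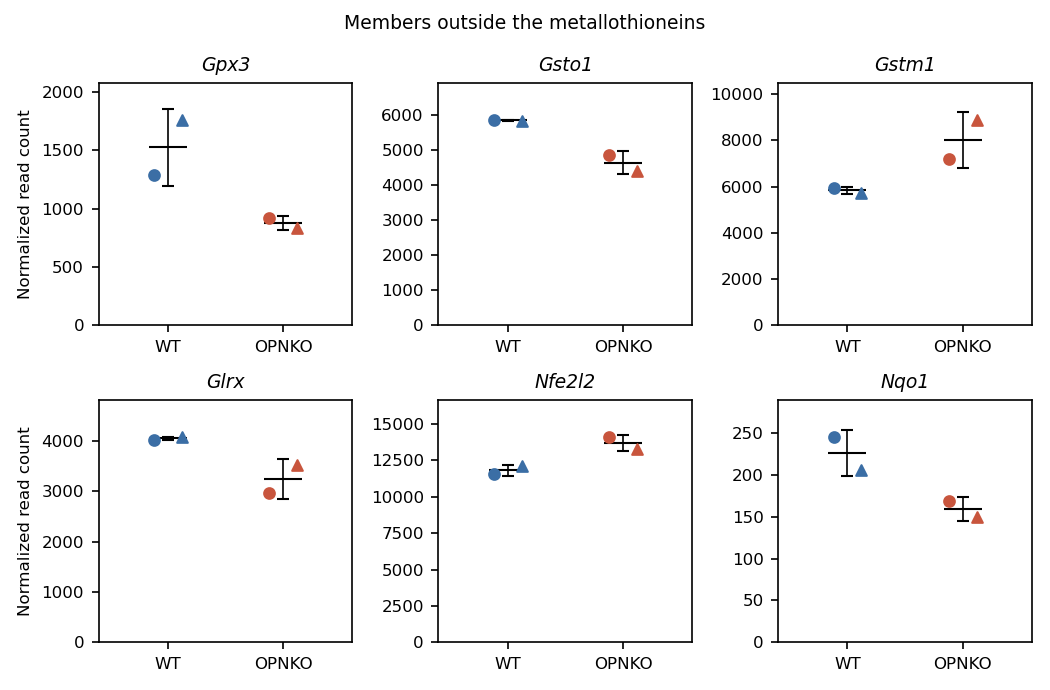
Normalized read counts of Gpx3, Gsto1, Gstm1, Glrx, Nfe2l2 and Nqo1 in each library; blue is WT and red OPNKO, circles are replicate 1 and triangles replicate 2, and the bar shows the mean with its SD (n = 2). The groups do not overlap for any of the 6 genes: Gstm1 and Nfe2l2 are higher and the other 4 lower in OPNKO, with limma calls for Gpx3 and Gsto1.

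Glutathione peroxidases, most of which use selenocysteine, were led by Gpx1, the cytosolic form and the member with the highest value per kb of exon. Gpx1 had 23923 and 22121 in WT and 23633 and 15429.7 in OPNKO, so 1 OPNKO library stood at the WT level and the other below it. Its log2 fold change was -0.27 ± 0.18 (SE; limma adjusted p = 0.431), and it was -0.58 without OPNKO replicate 1 (limma adjusted p = 0.0397) and 0.04 without OPNKO replicate 2 (0.888), the ends of the range over all alternatives. Gpx4, which reduces lipid peroxides in membranes, had 3356 and 3062 in WT and 3302 and 3046 in OPNKO, with a 95% interval of -0.20 to 0.16 on the log2 scale. Gpx3, a secreted form, had 1289 and 1761 in WT and 918 and 833 in OPNKO. Its mean fell from 1525 ± 334 to 875 ± 60.1 (SD, n = 2), to 57.4% of WT (-0.78 ± 0.15, SE; limma adjusted p = 0.0317). The call was lost when any 1 library was left out, with limma adjusted p from 0.0706 to 0.240 and log2 fold changes from -1.01 (without WT replicate 1) to -0.56 (without WT replicate 2).

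Some members differed between the WT libraries. WT replicate 2 exceeded WT replicate 1 by 1.37-fold for Gpx3, 3.53-fold for Sod3 and 4.45-fold for Gpx8, the last 2 having the widest such gaps of all members. On the log2(value + 1) scale the gap was 0.45 for Gpx3, and it was wider for the low-count transferase genes Gsto2 (0.98), Gstp2 (0.86) and Gstt1 (0.63) and for Gpx2, with its single read (0.98). Sod3, the extracellular superoxide dismutase of the matrix, had 34.0 and 120.04 in WT and 35.4 and 37.3 in OPNKO, so 3 libraries lay together and WT replicate 2 apart. Gpx8, an endoplasmic reticulum peroxidase, had 5.48 and 24.4 in WT and 7.99 and 3.73 in OPNKO, or 3 to 25 reads. Fibroblast and smooth muscle markers set the same library apart. All 15 of 15 were in the table, 0 were at 0 in every library, and their sum was 2963 and 11210 in WT and 2268 and 1748 in OPNKO; 15 of 15 had more in WT replicate 2 than in replicate 1, as had 12 of 12 endothelial markers. By limma 0 of the 15 were called between genotypes, by edgeR 0 and by DESeq2 1. At an unadjusted limma p under 0.05, 8 were lower, beside 9.54% of all tested genes. The part of these cells in the values of Gpx3, Sod3 and Gpx8 was not tested.

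Marker RNA of some other cell types also differed between the genotypes, while monocyte, endothelial and erythroid marker sums overlapped. The limma calls below stand beside 2.33% of all tested genes called higher and 1.98% called lower. B and plasma cell markers (11 in the table) had summed values of 31305 and 41458 in WT against 7897 and 7348 in OPNKO, and 4 of them fell. T and NK cell markers (14) went the other way, with 2581 and 3154 in WT against 5796 and 9399 in OPNKO, and 6 rose. Dendritic cell markers (11; 2 fell) had sums of 2376 and 3360.1 in WT against 1597 and 1609 in OPNKO, and epithelial markers (16; 2 fell) of 10644 and 12810.1 against 7768 and 7633. Monocyte markers (15; 3 fell) had sums of 501871 and 487305 in WT against 513783 and 440364 in OPNKO, mostly Fn1, with means of 398753 and 398640. Of these 15, 12 had a fold change below 0 (median -0.19), and Ccr2, the monocyte chemokine receptor gene, fell from a mean of 17093 to 7775. Neutrophil marker sums (10 genes, 9 tested) ran from 4590 to 6170, and 2 of the genes rose and 2 fell. Endothelial marker sums (12 genes) ran from 7554 to 10752; 1 gene rose, and 10 had a fold change below 0 (median -0.65). The 5 erythroid markers in the table had sums from 57.3 to 427 and 0 limma calls, with 0 also at an unadjusted p under 0.05 and by edgeR or DESeq2. None of the markers in the table was at 0 in every library. The part of these cells in the antioxidant values was not tested.

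**Figure D5:**
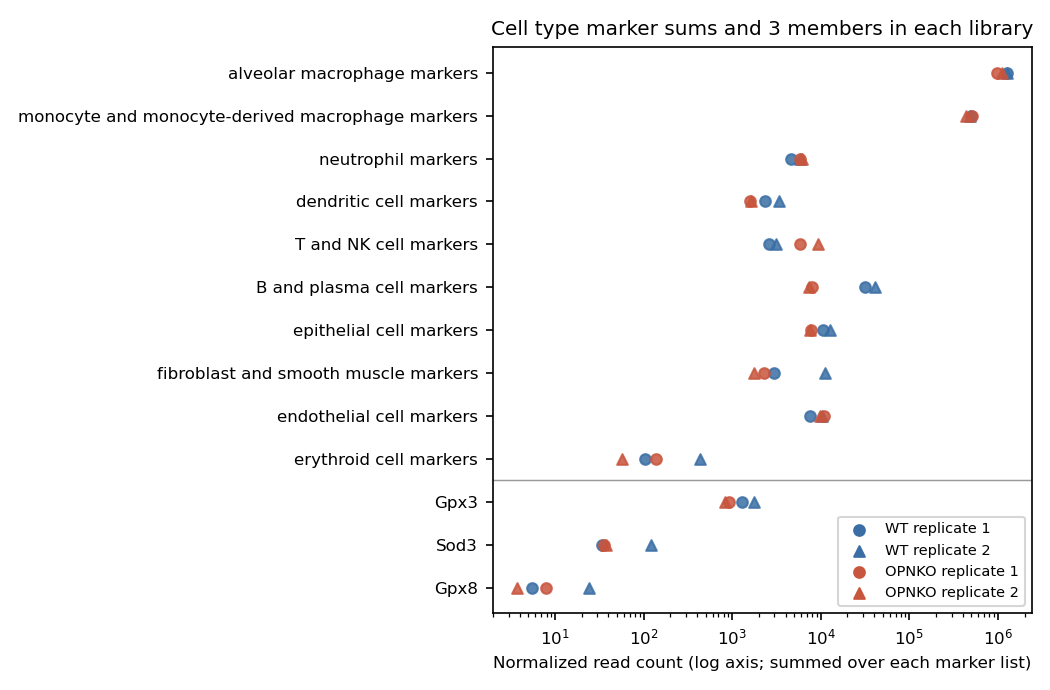
Normalized read counts summed over each cell type marker list, and those of Gpx3, Sod3 and Gpx8, in each library on a log axis; blue is WT and red OPNKO, circles are replicate 1 and triangles replicate 2. WT replicate 2 stands apart for fibroblast and erythroid markers and for Sod3 and Gpx8. Between genotypes the monocyte, endothelial and erythroid marker sums overlap, and those of the other marker lists do not.

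Of the peroxiredoxins and sulfiredoxin, which repairs overoxidized peroxiredoxins, 0 were called. All 7 had log2 fold changes below 0, from -0.18 for Prdx3 to -0.02 for Prdx1, but Prdx1 and Srxn1 had overlapping groups and stood at 0.13 and 0.05 without OPNKO replicate 2. In the other 5 both OPNKO libraries lay below both WT libraries, as they did in 25.0% of all tested genes. By limma 0 of 7 were called, with 1, Prdx3, at an unadjusted p under 0.05, and 0 by edgeR, DESeq2 or in the authors' deposited table. Prdx1, the most abundant of them per kb, had 38194 and 38277 in WT and 41835 and 33964 in OPNKO, so the WT libraries lay between the OPNKO libraries. Prdx5, found in mitochondria, peroxisomes and cytosol, had 12195 and 10998 in WT and 10664 and 10262 in OPNKO. Prdx3, the mitochondrial form, had 2136 and 2181 in WT and 1898 and 1919 in OPNKO, 88.4% of the WT mean, with a 95% interval of -0.33 to -0.02 on the log2 scale. Prdx2, Prdx4 and Prdx6 stood at 92.5%, 90.02% and 90.5% of their WT means. Srxn1, the sulfiredoxin gene, had 5496 and 4622 in WT and 5226 and 4054 in OPNKO, with replicate 1 above replicate 2 in both genotypes.

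In the thioredoxin system all 5 members had log2 fold changes below 0, from -0.19 for Txnrd3 to -0.04 for Txnrd1, and limma, edgeR and DESeq2 called 0 of them, with 0 also at an unadjusted limma p under 0.05. Txn1, the cytosolic thioredoxin gene, had 15519 and 15598 in WT and 15066 and 14360.5 in OPNKO, with a 95% interval of -0.23 to 0.07 on the log2 scale. Txnrd1, its selenium-containing reductase, had 12816 and 11889 in WT and 12930.1 and 11198 in OPNKO, with a 95% interval of -0.24 to 0.16. Txn2, the mitochondrial thioredoxin gene, stood at 91.8% of WT. Among 27 other thioredoxin-fold and repair genes, 1 rose and 2 fell, beside 2.33% of all tested genes called higher and 1.98% called lower. Txnip, the inhibitor that binds thioredoxin and is induced by glucose, rose from 20319.9 and 17359 to 24404 and 26875 (0.45 ± 0.09, SE; limma adjusted p = 0.0474, edgeR adjusted p = 0.0530). Sepw1, a small selenoprotein gene, fell from 2490.1 and 2561 to 1973 and 1887 (-0.39 ± 0.07, SE; limma adjusted p = 0.0263). Txndc5, a disulfide isomerase gene of the endoplasmic reticulum, fell from 4965 and 5075 to 4079 and 4080.2 (-0.30 ± 0.06, SE; limma adjusted p = 0.0392). None of these 3 calls held when any 1 library was left out, with limma adjusted p from 0.0839 to 0.333 for Txnip, from 0.0513 to 0.280 for Sepw1 and from 0.101 to 0.312 for Txndc5. Of 12 genes of selenoprotein synthesis 0 were called by limma, edgeR or DESeq2, with 0 also at an unadjusted limma p under 0.05.

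Glutaredoxins use glutathione to reduce protein disulfides or to carry iron-sulfur clusters. Glrx, the cytosolic enzyme, had 4029 and 4077 in WT and 2973 and 3525 in OPNKO, 80.2% of WT. Both OPNKO libraries were lower, by -0.32 ± 0.09 on the log2 scale (SE; limma adjusted p = 0.0920; DESeq2 adjusted p = 0.0395; adjusted p = 0.143 in the authors' deposited table), with adjusted p from 0.0212 to 0.439 over all alternatives. Glrx5, which carries iron-sulfur clusters in mitochondria, had 616 and 605 in WT and 527 and 452 in OPNKO (-0.32 ± 0.11, SE; limma adjusted p = 0.171). Glrx3 had a log2 fold change of -0.15 and Glrx2, a mitochondrial form, of 0.20. By limma and edgeR 0 of the 4 glutaredoxin genes were called, with 2 at an unadjusted limma p under 0.05 and 1 called by DESeq2. Their groups did not overlap, 3 lying lower and 1 higher, where 25.0% of all tested genes lay lower and 27.7% higher.

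Superoxide dismutases and catalase had overlapping groups in 4 of 4 genes and 0 calls by limma, edgeR and DESeq2, with 0 also at an unadjusted limma p under 0.05. Cat had 8909 and 8797 in WT and 8525 and 9368 in OPNKO, with a 95% interval of -0.15 to 0.17 on the log2 scale. Sod1, the cytosolic copper-zinc enzyme, had 2783 and 2961 in WT and 2731 and 2808 in OPNKO. Sod2, the mitochondrial manganese enzyme, had 4912 and 4479 in WT and 5310.4 and 4537 in OPNKO. Intervals of Sod1 (-0.21 to 0.11) and Sod2 (-0.15 to 0.28) bound the differences that these libraries leave possible.

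Levels of different members were compared per kb of exon, with lengths from the union of all annotated exons in GENCODE M21, so genes with long rare transcripts such as Sod2 (10.01 kb) rank low. As means over the 4 libraries, Gpx1 (14765), Txn1 (14401) and Prdx1 (12510) stood highest, followed by Prdx5 (5156), Mt1 (5128), Gsr (5085), Gstm1 (4704), Mgst1 (3676), Mt2 (3498), Cat (3406), Nfe2l2 (3362) and Gsto1 (2597). The ranges over libraries of Gpx1, Txn1 and Prdx1 overlap, as do those of several that follow, among them Prdx5, Mt1, Gsr and Gstm1. Their order by mean is thus not settled. With these lengths, the place of Mt1 and Gstm1 in this order differed between the groups. Per kb, Mt1 had 6020.0 and 6063 in WT, above the 4036 and 3879 of Gstm1. In OPNKO it had 3996 and 4433, below the 4871 and 6029 of Gstm1. The 1.246 kb used for Mt1 covers every base from 94179082 to 94180327, and the 1.441 kb of Gpx1 likewise covers its whole span. A shorter transcript would raise their values per kb, so the crossing of Mt1 and Gstm1 depends on the length used. At the low end, 8 members had a mean value under 50 and at most 30 reads in any library: Gsta3, Gsta4, Gstm7, Gsto2, Gstp2, Gstt1, Gpx8 and Gpx2. Gpx2, a gastrointestinal peroxidase in its known expression, had 1 read in WT replicate 2 and 0 in the other libraries, under the floor of 3 reads, and was not tested. For the other 7 the SE ran from 0.43 to 0.80 on the log2 scale, against a median SE of 0.09 for the 45 members with a mean value of 50 or more.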

How the data were processed

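The table deposited by the authors gives, per the file headers, normalized expression for every sample (a signal), and the authors' log2 fold change, its standard error (unit: score), p-value and adjusted p-value from a Wald test. The submitters' processing notes name edgeR, HTSeq 0.6.1p1, STAR 2.4.1d and Trim Galore 0.4.0, without their roles (build, annotation and strand setting: not given in the sources used here). Per the labels, 10 stranded libraries were built and 4 were analysed here; 2 columns without a label were not used, and 1 row with a blank symbol is not named.

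Values were tested with limma 3.58.1 (trend, R 4.3.3) on log2(value + 1), which shrinks fold changes of low genes, in the 16431 genes whose mean reached 1, with Benjamini-Hochberg adjustment; 324 genes were left out. Dividing by the smallest value above 0 in each library gave whole reads for 100% of values (tolerance 0.001 reads), which were tested with edgeR 4.0.16 quasi-likelihood (694 genes called) and DESeq2 1.42.0. Scripts were tested on simulated data. The members and lists were chosen with earlier results of these data known. Values in all libraries are given for members called by any tool, the 12 highest per kb, those the rule names singly, and those with an unadjusted p under 0.05 and groups that do not overlap, and up to 4 called genes are named per pathway list. Slc30a1, Slc7a11, Sqstm1, Cybb, Cyba, Rac2, Chi3l3, Fn1, Ccr2 and the further members with values (Gpx4, Gstp1, Txnrd1, Sod1, Sod2, Sod3, Gpx8) were chosen after their values were seen. Older symbols were matched by Ensembl identifier to GENCODE M21 (16542 rows, all 53 members), and 10 members share exon bases with another gene, among them Mt2, Prdx2 and Prdx5. Promoters are from RefSeq (47 members matched). Python 3.11.15, pandas 2.3.3, numpy 2.4.6, scipy 1.17.1 and matplotlib 3.10.9 were used.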

Additional observations from a re-analysis of the deposited data

How the results depend on the processing

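Of 709 genes, 4 antioxidant genes and 7 pathway genes called, other scalings and a pseudocount of 0.5 kept each count within 1.5 times. With no filter, where rows at 0 in every library enter the fit, the counts were 1, 0 and 0. When genes of mean value below 50 were left out, 2 antioxidant genes were called, Gpx3 and Mt1. DESeq2 called 1136 genes, 6 antioxidant genes and 14 pathway genes. With the replicate block they were 1566, 6 and 18. Same-numbered libraries deviated with a correlation of -0.02 across genes. With 2 libraries a group, that value cannot decide whether same-numbered libraries shared a preparation. Leaving out 1 library gave 4 to 545 genes, 0 to 4 antioxidant genes and 0 to 6 pathway genes. Over 406 alternatives for 29 named genes, 339 kept direction and side of the threshold, 53 lost the call and 7 gained it. Direction turned in 7, in genes that were not called. Without 1 library the log2 fold change ran from -0.32 to 0.038 for Gsr, -0.014 to 0.12 for Mgst1, -0.58 to 0.039 for Gpx1, -0.17 to 0.13 for Prdx1, -0.31 to 0.052 for Srxn1 and -0.054 to 0.082 for Cat, and it was -0.0068 for Cat with total-read scaling. The cause was not tested. Of Mt1's 14 alternatives 11 called it, with adjusted p from 5.28e-07 to 0.203; for Mt2 it was 7 of 14 (5.39e-04 to 0.312), and for Gpx3 and Gsto1 9 of 14 each (7.73e-05 to 0.240 and 0.00320 to 0.326).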
